A study of Glycine max with 2 samples.

Results

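The deposited tables set 2 soybean (Glycine max) leaf libraries, columns A and B, against each other at 50 days and again at 95 days after sowing, and column B was followed here from the younger to the older leaf. A transcript entered if both tables list it, which left 788 transcripts of 719 genes out of 4096 transcripts found in either table (2413 at 50 days and 2471 at 95 days). The plants were an early senescing and a late senescing type, grown in a greenhouse without any treatment, and the labels name no genotype or cultivar. The labels do not tie column A or B to a type, and they do not say that B is the same type at both ages. Each column holds 1 library per age, so there is no replicate and no test: differences below are between 4 single libraries, and intervals (95%, exact Clopper-Pearson) cover counting error only.

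Every listed row has a p-value under 0.05 for a difference between A and B at that age in the authors' deposited tables (highest 0.049968 at 50 days and 0.049979 at 95 days). A transcript that varies with age alike in both columns is therefore under-represented among these rows, and the total depth of each library is unknown. Values are levels, meaning the authors' normalised read counts after removing the 1 they had added. Levels came out as whole multiples of 0.803 (A at 50 days), 1.25 (A at 95 days), 0.939 (B at 50 days) and 1.09 (B at 95 days), each step being what 1 read was worth. Leaf identity could be checked only through listed transcripts: 8 mesophyll marker transcripts were listed at 50 days with a summed level of 787 in B, and 5 were listed at 95 days with a summed level of 8498, but the sets differ and 2 in each were at 0. Nodule and root markers, all matched by the word nodulin, summed to 690.2 in B at 50 days (3 listed). At 95 days the 1 listed was a different transcript, at 0. Seed markers summed to 38.5 at 50 days with none listed at 95 days. For flower, 1 pollen-specific extensin-like transcript was at 190 in B at 95 days, with none listed at 50 days. The vascular APL-like transcript was at 131 and then 288. The part of these markers in the results was not tested. In bulk leaf RNA, fewer cells of a type and less RNA per cell cannot be told apart.

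An annual crop leaf first builds photosynthetic capacity, then dismantles its chloroplasts and exports nitrogen as amino acids to the seed. Chlorophyll breakdown, proteolysis, glutamine synthetase and amino acid permeases are classic parts of that programme. The circadian clock is a loop of morning and evening transcription factors that times photosynthesis and flowering within the day, and in soybean FLOWERING LOCUS T proteins made in leaves carry the signal to flower.

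In column B, 182 of the 788 transcripts (23.1%) were higher at 95 days and 89 (11.3%) were lower, counting those with a level of 100 or more at either age and a ratio of 4 or more. A further 195 reached 100 and stayed within 4-fold, and 322 were below 100 at both ages, 213 of them with no read at either. The higher transcripts came from 167 genes and reached a median level of 413 at 95 days, with 46 at 1000 or more. The lower ones came from 89 genes and had a median level of 509 at 50 days, with 23 at 1000 or more. Most of the differences were between reads and no reads: 128 of the 182 had no read in B at 50 days, and 65 of the 89 had none at 95 days. Against no read, a fold is a lower bound computed from 3 reads in that library. The transcripts just past 4-fold were Glyma.02G191500.10 (4.10-fold higher) and Glyma.13G224400.1 (4.27-fold lower), and those just short of it were Glyma.12G204100.1 (3.97-fold) and the lipoxygenase Glyma.13G030300.1 (3.95-fold).

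**Figure D1:**
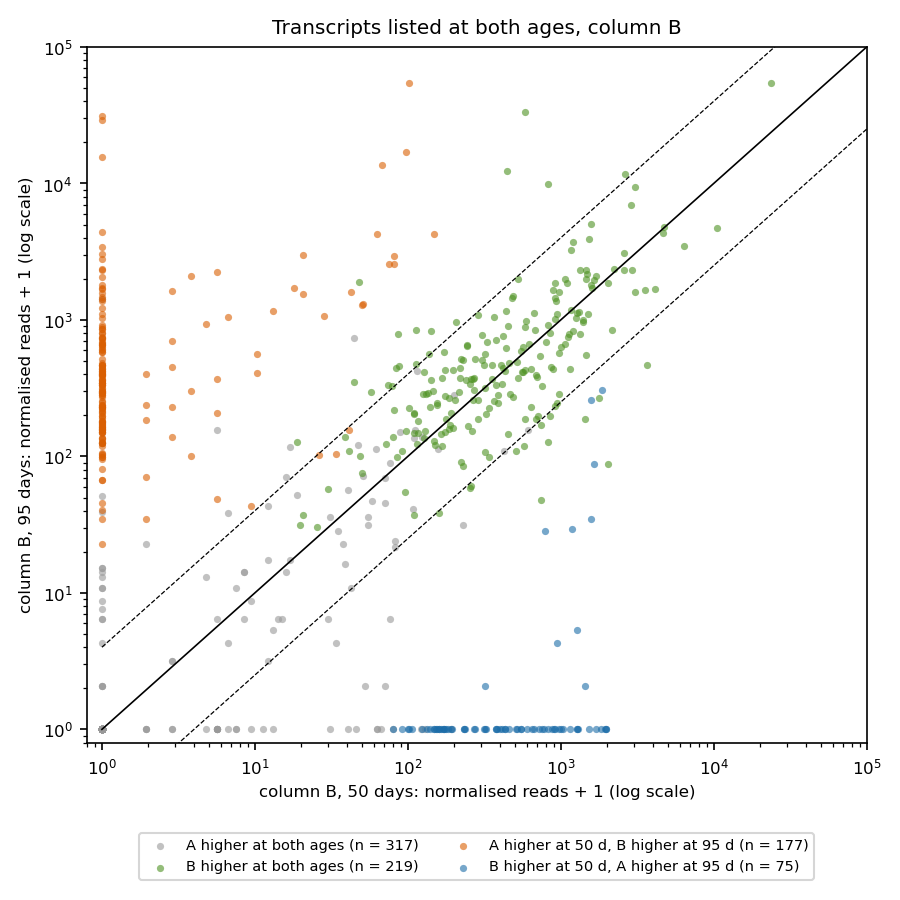
Level in column B at 50 days (horizontal) against 95 days (vertical), both as normalised reads + 1 on log scales, 1 point per transcript and 1 library per axis. The solid line marks equal levels and dashed lines a 4-fold ratio of the plotted values; the 177 transcripts that passed from the A side to the B side lie above the diagonal, and the 75 that passed the other way below it.

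Large differences in B went with a change in which column was higher. Listing rows for a difference between A and B largely fixes this, so the link is not a separate finding. Among the 177 transcripts that passed from the A side to the B side, 136 had no read in B at 50 days. The 177 transcripts higher in A at 50 days and higher in B at 95 days included 159 of the 182 that were higher in B at the later age and none of those that were lower. Among the 162 of them that reached 100 in B, the median level was 0 in B and 352 in A at 50 days, and 398 in B and 0 in A at 95 days. The 75 transcripts with the opposite order included 72 of the 89 lower ones, with medians (over the 72 at 100 or more) of 482 in B and 0 in A at 50 days, then 0 in B and 370 in A at 95 days. By contrast, 219 transcripts were higher in B at both ages, and of the 211 at 100 or more, 180 stayed within 4-fold, 18 were higher and 13 were lower at 95 days. Their median level was 436 at 50 days and 437 at 95 days, and 123 of the 211 differed by less than 2-fold. The remaining 317 were higher in A at both ages, and 21 of them reached 100 in B.

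The column that stood higher was the same at both ages for 536 of the 788 transcripts (68.0%). Column A, measured on the same transcripts, had 90 (11.4%) higher and 191 (24.2%) lower at 95 days. Of the 182 transcripts higher in B, A was lower for 144, higher for 3 and neither for 35. Because each row was listed for a difference between the columns, these A values are not an independent check on B.

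The largest ratios among the higher transcripts included chloroplast, light and energy-sensing genes. THIC (Glyma.18G065700.2), which makes the pyrimidine part of thiamine in the chloroplast, had no read in B at 50 days and a level of 31020 at 95 days, against 22.5 and 0 in A. Its level at 95 days was at least 11012-fold higher, and B at 95 days was the one high library of the 4. Peamaclein (Glyma.06G044400.1), a small cysteine-rich peptide of the snakin family, was at 0 and 29332 in B and at 53.0 and 6.23 in A. WEB1 (Glyma.16G095000.2), needed in Arabidopsis for blue-light movement of chloroplasts, was at 0 and 15756 in B (at least 5593-fold), while A was at 193 and 196. For these 3 transcripts, A stayed at or below 196 at both ages.

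Other transcripts in this set moved oppositely in the 2 columns. SPA1 (Glyma.16G027200.4), a partner of the COP1 ubiquitin ligase that represses light signalling, was at 0 and 3403 in B and at 834 and 0 in A. Its second isoform, Glyma.16G027200.3, was at 0 and 2816 in B and at 920 and 0 in A. The ABC transporter G family member 41 (Glyma.08G070800.2) was at 0 and 3019 in B, at least 1072-fold higher, and at 29775 and 148 in A. KIN10 (Glyma.13G060400.3), the catalytic subunit of the energy-sensing kinase SnRK1, was at 0 and 2052 in B and at 1474 and 0 in A. In each of these, B at 95 days and A at 50 days were the high libraries. XERICO (Glyma.18G013800.1), a RING protein tied to abscisic acid in Arabidopsis, was at 2.82 and 2111 in B, 749.5-fold higher (interval 256 to 3638), and at 344 and 11.2 in A.

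The first enzymes of plastid isoprenoid synthesis were both higher in B at 95 days. DXS (Glyma.17G021800.2), which condenses pyruvate and glyceraldehyde phosphate, was at 0 and 1578 in B and at 1934 and 0 in A. DXR (Glyma.16G089000.2), which acts next, was at 0 and 1809 in B and at 34.5 and 12.5 in A. DXS, which was not among the 12 leading genes, was added to DXR after its values were seen. Transcripts Glyma.13G372900.2 and Glyma.13G277000.1, with no function in the table, were also among the 12 leading genes, with levels of 2342 and 2308 in B at 95 days and no read at 50 days.

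**Figure D2:**
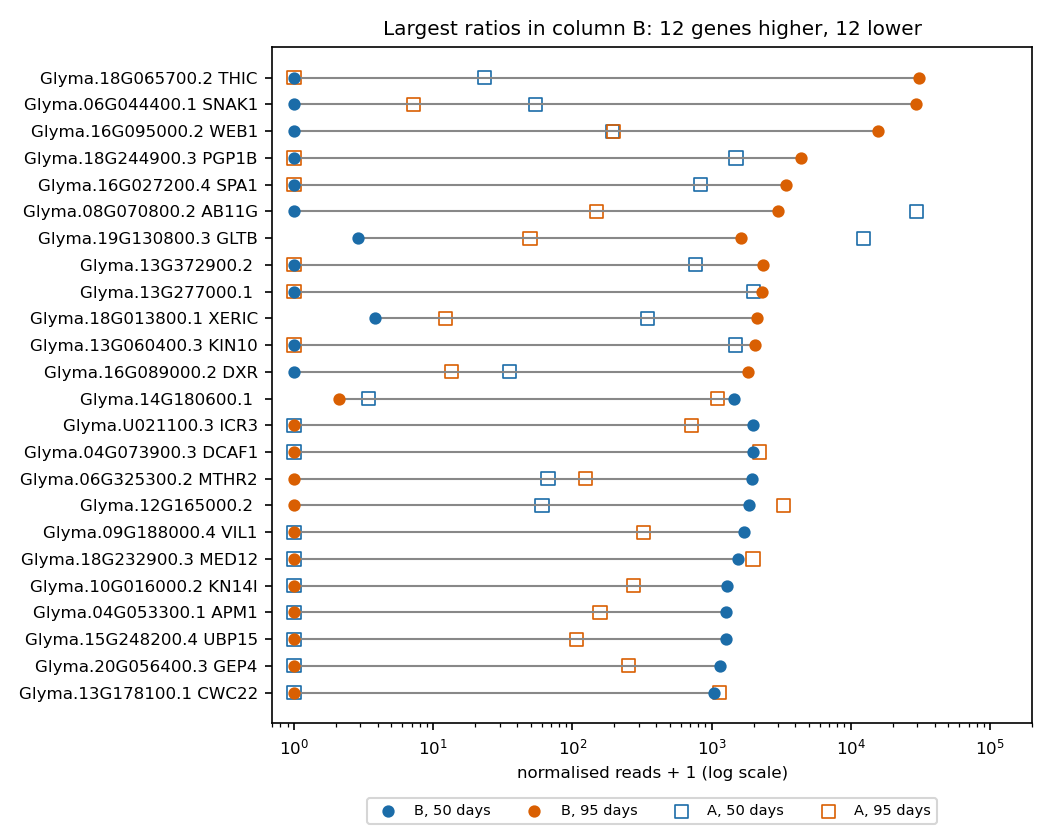
Levels (normalised reads + 1, log scale) of the 12 genes with the largest ratio in each direction in column B, filled circles for B and open squares for A, blue for 50 days and orange for 95 days, 1 library each. In the upper 12 rows B at 95 days reaches from 1632 to 31020; in the lower 12, B at 50 days lies between 1039 and 1984.

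Transcripts that B already held at 50 days give ratios with reads on both sides. The highest level at 95 days among the transcripts called higher, 54226, was that of an invertase and pectin methylesterase inhibitor (Glyma.09G231900.1), a family that restrains sucrose cleavage or pectin remodelling. It stood at 100.5 in B at 50 days, so the ratio was 539.7 (interval 447 to 659), while A went from 10672 to 957. ABCC15 (Glyma.05G145000.1), a vacuolar-type ABC transporter, was 177-fold higher in B (95.8 and 16959; interval 146 to 217) and lower in A (4913 and 756). RD22 (Glyma.06G081100.1), a drought-responsive BURP-domain protein, was at 19.7 and 2975 in B, a ratio of 151 (interval 98.5 to 244), and at 782 and 112 in A. Uclacyanin-3 (Glyma.03G109900.2), a copper-binding protein, and Glyma.01G191600.1, of no stated function, were 95.6-fold and 206-fold higher. All 5 were higher in A than in B at 50 days and higher in B than in A at 95 days.

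Some transcripts that were higher in B than in A at both ages were also higher in B at 95 days than at 50 days. PGR5-like 1A (Glyma.01G214300.2), which takes part in cyclic electron flow around photosystem I, was at 442 and 12392 in B, 28.0-fold higher (interval 25.5 to 30.8), with A at 0 and 202. LCB1 (Glyma.17G239700.3), a subunit of the enzyme that begins sphingolipid synthesis, was at 47.0 and 1896 in B and at 0 in A at both ages. A lectin precursor (Glyma.02G156800.1) was at 819 and 9910 in B, 12.1-fold higher, with A at 20.1 and 36.1. Aquaporin PIP1-6 (Glyma.08G015300.1), a plasma membrane water channel, was at 2625 and 11643, 4.43-fold higher (interval 4.25 to 4.63). Its log2 ratio of 2.15 was below 4-fold after rescaling (1.84) and on whole reads without size factors (1.93). Apart from the aquaporin, these were picked with their values in view, and so was the unnamed Glyma.14G032000.1, at 584 and 33630 in B.

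The largest ratios among the lower transcripts came from genes of varied function. ICR3 (Glyma.U021100.3), an effector of ROP GTPases in cell polarity, was at 1984 in B at 50 days and had no read at 95 days, at least 605-fold lower, with A at 0 and 717. DCAF1 (Glyma.04G073900.3), a substrate receptor of CUL4 ubiquitin ligases, was at 1966 and 0 in B and at 0 and 2213 in A. VIL1 (Glyma.09G188000.4), a Polycomb-associated protein of the vernalization family, was at 1699 and 0 in B and at 0 and 321 in A. In all 3, B at 50 days and A at 95 days were the libraries with reads. MTHFR2 (Glyma.06G325300.2), a folate enzyme of methionine supply, was at 1937 and 0 in B, at least 590.2-fold lower, whereas A was at 65.8 and 123.

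A kinesin-4-like motor (Glyma.10G016000.2, 1291 in B at 50 days), the aminopeptidase APM1 (Glyma.04G053300.1, 1275) and the deubiquitinating enzyme UBP15 (Glyma.15G248200.4, 1273) likewise had no read in B at 95 days. Of APM1, a second isoform (Glyma.04G053300.4) was at 1107 and 754 in B, within 4-fold. Among transcripts still at 10 or more at 95 days, 2 IQ-domain 31-like calmodulin-binding proteins were 28.8-fold (Glyma.02G019700.6, 787 and 27.3) and 23.7-fold lower (Glyma.06G191200.4, 2045 and 86.4). The unnamed Glyma.14G180600.1 was at 1449 and 1.09, where the 1 read behind the later value leaves an interval of 237 to 52344.

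Of 23 clock transcripts from 15 genes, 13 (56.5%) were higher and 4 (17.4%) lower, against 23.1% and 11.3% over all 788. Another 1 was within 4-fold and 5 were below 100 at both ages. The median log2 ratio was 6.96 (5.46 with transcripts without reads set to 3 reads), against 0 over all 788. Transcripts that share a gene are not independent, and 5 of the 13 came from Glyma.07G049400 and 4 from Glyma.19G260400. With 1 isoform per gene, 6 of the 15 clock genes were higher and 4 lower, beside 161 higher and 86 lower over all 719 genes. The same setting gave 7 and 6 of 27 ubiquitin and proteasome genes, and 8 and 1 of 25 for signalling kinases and phosphatases.

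PRR5 and PRR9-type pseudo-response regulators, daytime repressors of the clock, were on the higher side. Of their 11 transcripts from 3 genes, 10 were higher and 1 was within 4-fold. PRR95-like Glyma.07G049400.16 was at 74.2 in B at 50 days and 2585 at 95 days, 34.8-fold higher (interval 27.8 to 44.2), with A at 11597 and 132. APRR5-like Glyma.19G260400.4 was at 3.76 and 932 in B, 248-fold higher (interval 96.6 to 913), with A at 1106 and 0. All 11 were higher in A at 50 days and higher in B at 95 days. LNK1-like transcripts, coactivators that work with REVEILLE factors, showed the same order: Glyma.08G179400.3, Glyma.15G053000.9 and Glyma.05G118300.2 had no read in B at 50 days and were at 419, 133 and 124 at 95 days.

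The lower clock transcripts were of other families. TOC1 (Glyma.17G102200.4), the evening pseudo-response regulator also named APRR1, was at 1574 and 259 in B, 6.07-fold lower (interval 5.29 to 6.98), with A at 51.4 and 7993. REVEILLE 1 (Glyma.02G241000.1), a MYB-type factor linking clock and auxin, was at 1182 and 28.4 in B, 41.6-fold lower (interval 28.2 to 63.9), with A at 36.9 and 2422. The second REVEILLE 1-like transcript (Glyma.14G210600.2) was at 235 and 0, and ELF3-like (Glyma.04G050200.3), part of the evening complex, at 596 and 0, with A at 0 and 4182. All 4 were higher in B at 50 days and higher in A at 95 days. Both LHY transcripts and both LNK2 transcripts were below 100 in B at both ages, from 65.7 to 81.7 at 50 days and from 0 to 20.8 at 95 days, and the APRR7 transcript had no read in B. The labels give no hour of harvest for these daily cycling genes, so age and time of day cannot be told apart.

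**Figure D3:**
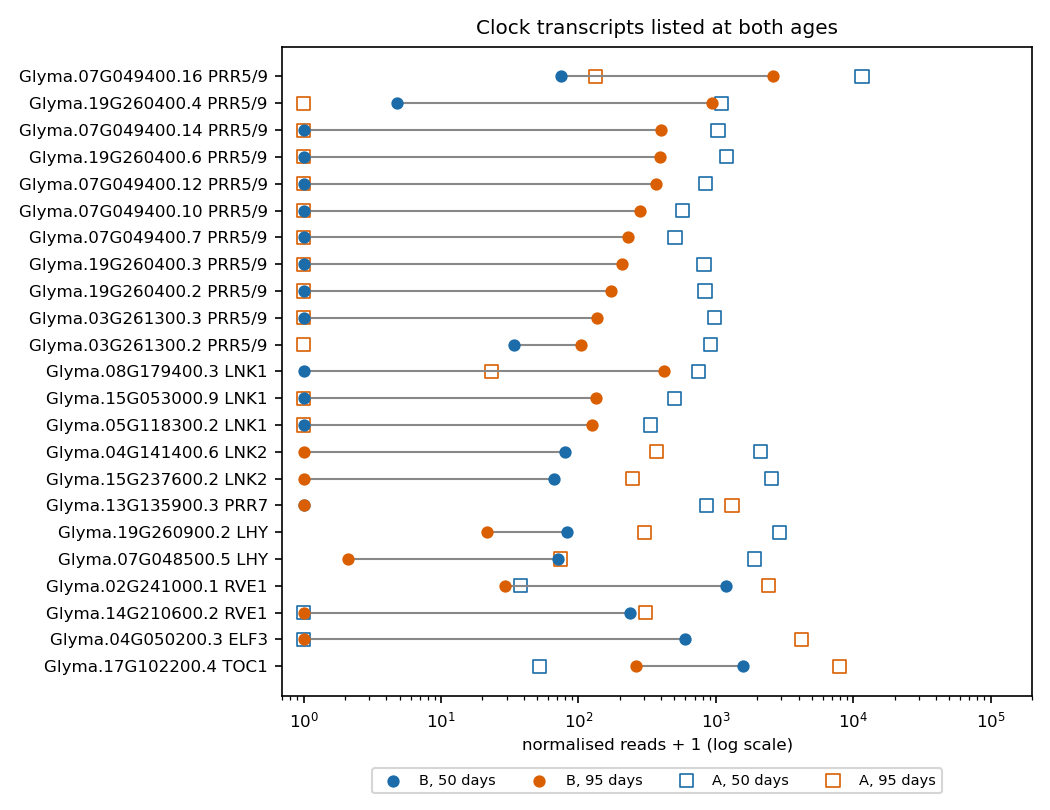
Levels (normalised reads + 1, log scale) of the 23 clock transcripts, grouped by family, with B as filled circles and A as open squares, blue for 50 days and orange for 95 days. The 11 PRR5 and PRR9-type and 3 LNK1-like transcripts are further right at 95 days in B, and the TOC1, REVEILLE 1 and ELF3 transcripts further left.

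Flowering and light genes included both soybean FT-type transcripts of the set. FT2a (Glyma.16G150700.1), a floral promoter made in leaves, was at 0 and 1364 in B, at least 484-fold higher, and at 191 and 57.3 in A. The FLOWERING LOCUS T-like Glyma.16G044100.1 was at 0 and 1103 in B, at least 391-fold higher, and at 266 and 64.8 in A. In both, B at 95 days was the highest of the 4 libraries and B at 50 days the only one without reads. CONSTANS-LIKE 9-like (Glyma.14G190400.5), of a family that acts on FT, went the other way, at 458 and 0 in B and at 0 and 932 in A. The light and photoperiod list, which leaves out FT2a by its wording, had 8 transcripts. Of these 3 (37.5%) were higher and 1 (12.5%) was lower, against 23.1% and 11.3% over all 788. The 3 include 2 isoforms of SPA1, and with 1 isoform per gene 2 were higher.

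Photosynthesis was represented by 6 transcripts, of which 3 (50%) were higher, against 23.1% over all 788. The others were 1 within 4-fold and 2 below 100. Among the 3 is a glutamate synthase (Glyma.19G130800.3) that the nitrogen list also counts, and with 1 isoform per gene 2 were higher. The photosystem I chlorophyll a/b-binding protein Glyma.19G261400.1 was at 27.2 and 1061 in B, 39.0-fold higher (interval 27.0 to 58.5), with A at 1390 and 33.6. Phosphoglycolate phosphatase 1B, the first enzyme of photorespiration after Rubisco, had isoform Glyma.18G244900.3 at 0 and 4376 in B and at 1494 and 0 in A. Its other isoform, Glyma.18G244900.2, was at 2885 and 6982 in B and had no read in A at either age. Summed over both isoforms, the level in B was 3.94-fold higher at 95 days, within 4-fold. Counted by the word in their descriptions, a grouping made after values were seen, 35 transcripts name the chloroplast. Beside 23.1% higher and 11.3% lower over all 788, 15 of these 35 were higher, 2 lower, 9 within 4-fold and 9 below 100. The 2 lower ones were the assembly factor CCB2 (Glyma.16G198400.3, 753 and 0) and a tRNA adenosine deaminase (Glyma.02G129800.2, 380.3 and 0).

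Chlorophyll metabolism had 2 transcripts. Chlorophyllide a oxygenase (Glyma.14G150600.1), which makes chlorophyll b, was at 0 and 752 in B and at 4267 and 8.72 in A. Pheophytinase (Glyma.09G226000.5), which removes the phytol tail during chlorophyll breakdown, was at 1705 and 2111 in B, within 4-fold. The list of senescence factors, proteases and autophagy genes gave none past 4-fold among 5 transcripts, and 1 lower after rescaling to a median log2 ratio of 0. By its wording it leaves out the aminopeptidase APM1, which was lower in B, and an RD21B-like cysteine protease. A Kunitz trypsin inhibitor (Glyma.09G155500.1) was at 1535 and 3930 in B, subtilase SBT1.7 (Glyma.07G040100.1) at 1328 and 789, and ATG9 (Glyma.03G162100.2), a membrane protein of autophagosome formation, at 339.9 and 97.4.

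Of 11 nitrogen transcripts, 3 (27.3%) were higher, 2 (18.2%) lower, 2 within 4-fold and 4 below 100, shares near those over all 788 (23.1% and 11.3%). Cytosolic glutamine synthetase (Glyma.11G215500.2), which packs ammonium for export, was at 79.8 and 2954 in B, 37.0-fold higher (interval 29.8 to 46.5), with A at 6022 and 62.3. Ferredoxin-dependent glutamate synthase (Glyma.19G130800.3), chloroplastic-like by its description, was at 1.88 and 1632 in B, 869-fold higher (interval 240.2 to 7183). In A it was at 12301 and 48.6. Asparagine synthetase (Glyma.18G061100.3) was at 649 and 0 in B, at least 198-fold lower, with A at 0 and 428. The amino acid permeases differed among themselves: AAP3-like (Glyma.14G153500.2) was at 0 and 232, AAP7 (Glyma.18G071900.3) at 320.2 and 1.09, and AAP8 (Glyma.06G088300.2) at 385 and 279.

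Of 7 starch and sugar transcripts, 3 (42.9%) were higher and none lower, against 23.1% and 11.3% over all 788. The higher ones were the inhibitor Glyma.09G231900.1, SNF4 (Glyma.03G236900.3, 0 and 435), a regulatory subunit of SnRK1, and the sugar exporter SWEET3-like (Glyma.14G160100.1, 56.3 and 298). All 4 transcripts for storage proteins, lipoxygenase and jasmonate were within 4-fold, though 1 was lower after rescaling. Vegetative storage protein A (Glyma.07G014600.1), a leaf nitrogen store of soybean listed as stem 28 kDa glycoprotein, was at 4749 and 4830 in B, a ratio of 1.02 (interval 0.977 to 1.06), with A at 40.9 and 92.2. Allene oxide cyclase 4 (Glyma.18G280900.1), a jasmonate enzyme, was at 2586 and 2335, and LOX5 (Glyma.20G144600.1) at 525 and 2007.

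**Figure D4:**
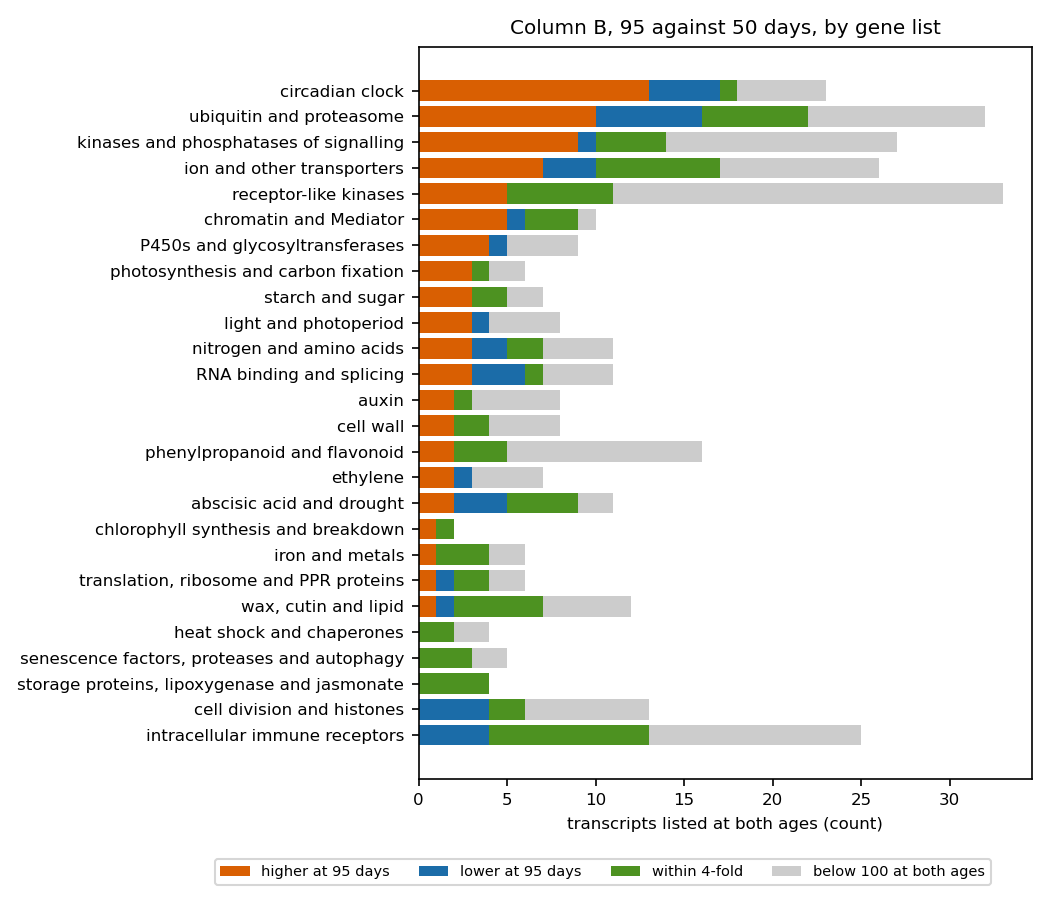
Number of transcripts listed at both ages in each of 26 gene lists, split by their level in column B: higher or lower at 95 days by 4-fold or more, within 4-fold, or below 100 at both ages. Clock genes have 13 higher transcripts (6 with 1 isoform per gene), and intracellular immune receptors have 4 lower and none higher.

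The immune receptor and cell division lists held lower and no higher transcripts. Of 25 transcripts for intracellular immune receptors, 4 (16%) were lower, near the 11.3% over all 788, 9 were within 4-fold and 12 were below 100. The receptor Glyma.05G165800.1 was at 1441 and 186 in B, 7.75-fold lower (interval 6.61 to 9.13), with no read in A, and Glyma.08G123300.4 was at 881 and 0 in B and at 0 and 724 in A. TAO1-like Glyma.06G265000.1, the most abundant, was at 4659 and 4343. Of 13 cell division and histone transcripts, 4 (30.8%) were lower, 2 were within 4-fold and 7 were below 100. Histone H4 (Glyma.U033600.1) was at 854 and 197 in B, 4.34-fold lower (interval 3.69 to 5.12), and H3.2 (Glyma.13G173100.1) at 821 and 127. Histone genes and immune receptors come in near-identical copies, and no source used here says how reads were divided among copies, so these values are uncertain.

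Of 27 signalling kinase and phosphatase transcripts, 9 (33.3%) were higher and 1 (3.70%) was lower. Of 33 receptor-like kinase transcripts, 5 (15.2%) were higher, below the 23.1% over all 788, none was lower and 22 were below 100. These lists share transcripts, among them the higher Glyma.09G272100.2, Glyma.12G077300.7 and Glyma.19G036600.2. SMG1 (Glyma.11G123500.2), a kinase of nonsense-mediated decay, was at 0 and 1429 in B and at 1774 and 0 in A. The receptor-like cytoplasmic kinase CRCK3 had isoforms Glyma.17G109600.5 at 0 and 737 and Glyma.17G109600.4 at 1.88 and 702 in B. Hormone lists were small. Abscisic acid and drought had 2 higher (18.2%) and 3 lower (27.3%) of 11 transcripts, and auxin 2 (25%) and 0 of 8. Ethylene had 2 (28.6%) and 1 (14.3%) of 7, beside 23.1% and 11.3% over all 788. The abscisic acid and drought list, set by words, holds ERD15 and 10 protein phosphatases 2C, and leaves out XERICO and RD22, both higher. In it, ERD15 (Glyma.03G131900.3), a dehydration-induced regulator, was at 0 and 737. Of the 10 protein phosphatases 2C, 1 was higher, 3 were lower, 4 were within 4-fold and 2 were below 100. Glyma.14G104900.2 was the higher one, at 0 and 409, and Glyma.19G230200.2 had the highest level of the lower ones, at 429 and 0. SAUR32 (Glyma.07G051700.1), an auxin-responsive growth protein, was at 49.8 and 1308 in B, 26.3-fold higher, and at 1248 and 89.7 in A. Glyma.04G227900.3, ACC oxidase 5-like by its description but matched to Arabidopsis DMR6 by its symbol, was at 668 and 0 in B. The 2 higher ethylene transcripts were an AP2-like factor (Glyma.08G297000.1, 113 and 848) and an APETALA 2-like one (Glyma.19G178200.3, 0 and 181). EIN2-like and EIN3 transcripts had no read in B at either age, and an ethylene receptor-like one was at 90.1 and 0.

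Ubiquitin and proteasome genes had 10 higher (31.25%) and 6 lower (18.75%) of 32 transcripts, against 23.1% and 11.3% over all 788. Besides XERICO and UBP15, the ligase BOI-like (Glyma.02G035800.7) was at 0 and 858 in B. Transporters had 7 higher (26.9%) and 3 lower (11.5%) of 26, near the shares over all 788. The boron exporter BOR2 (Glyma.05G038300.1) was at 259 and 60.2, 4.31-fold lower. Cytochromes P450 and glycosyltransferases had 4 higher (44.4%) and 1 lower (11.1%) of 9. CYP71D10 (Glyma.08G109900.1) was at 4.69 and 2258 in B, 481-fold higher (interval 206 to 1483). The lower one (Glyma.18G179500.1, 270 and 0) is a dolichol-linked glucosyltransferase, ALG10 by its symbol. Chromatin and Mediator genes had 5 higher and 1 lower of 10, or 3 and 0 with 1 isoform per gene; the 5 came from 3 genes: EAF1, the histone methyltransferase ASHH2 (Glyma.04G245400.2, 0 and 361) and MED12. RNA binding and splicing had 3 each way of 11, and translation 1 each way of 6. Phenylpropanoid genes had 2 higher and none lower of 16, cell wall 2 and 0 of 8, iron and metals 1 and 0 of 6, wax and lipid 1 and 1 of 12 (1 and 3 after rescaling), and heat shock none past 4-fold of 4. In all, 17 of the 26 lists had more higher than lower transcripts, beside 182 higher and 89 lower over the 788. Some lists share transcripts, so these are not separate counts.

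Isoforms of one gene could differ in direction. Of 57 genes with 2 or more listed transcripts, 28 had a transcript past 4-fold, 9 had 2 or more in the same direction and 7 had opposite directions. MED12 (Glyma.18G232900), a kinase-module subunit of Mediator, had Glyma.18G232900.1 at 16.9 and 1727 in B (102-fold higher, interval 64.5 to 173) and Glyma.18G232900.3 at 1533 and 0. Their sum was 1550.3 at 50 days and 1727 at 95 days. CWC22 (Glyma.13G178100), a splicing factor, had Glyma.13G178100.1 at 1039 and 0 and Glyma.13G178100.3 at 0 and 664. In column A the same isoforms stood in the reverse order, the first at 0 and 1135 and the other at 1141 and 0.

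For 6 of these 7 genes the summed level stayed within 4-fold, as for IQD31 (Glyma.02G019700), whose isoforms Glyma.02G019700.6 and Glyma.02G019700.7 were at 787 and 27.3 and at 0 and 689. The exception was the ubiquitin ligase UPL7 (Glyma.19G189100), whose sum was 828 and 125, 6.64-fold lower. HIP1 (Glyma.04G039800) had Glyma.04G039800.2 at 82.6 and 443 and Glyma.04G039800.6 at 897 and 0. Isoforms share sequence, so their split depends on a counting step that the sources leave unstated. The remaining 2, Glyma.09G062700 and Glyma.13G106700, have no function in the table. Sums cover listed isoforms alone: 175 of the genes followed had another isoform listed at 1 age, 120 such isoforms at 50 days and 115 at 95 days.

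**Figure D5:**
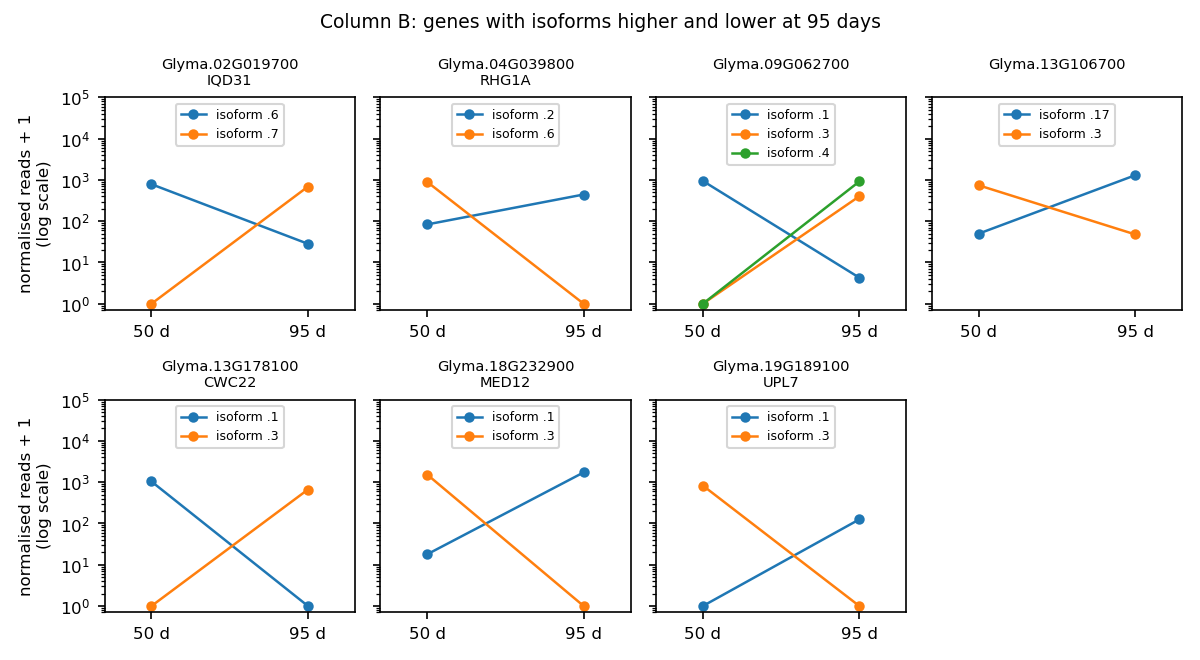
Level in column B (normalised reads + 1, log scale) at 50 and 95 days for each listed isoform of the 7 genes with isoforms in both directions, 1 line per isoform and 1 library per age. The lines cross in each panel; the summed level differed by 4-fold or more in 1 gene, UPL7.

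The steadiest transcripts at 100 or more were VSP A, a cysteine-rich receptor-like kinase 10 (Glyma.20G139000.4, 316 and 317), an ASIL1-like trihelix factor (Glyma.13G359800.2, 428 and 423) and BRXL4 (Glyma.17G051200.2, 264 and 258). All 4 were higher in B than in A at both ages. The RD21B-like cysteine protease transcript Glyma.14G085600.1, abundant at both ages, was at 23619 and 54533 in B, 2.31-fold higher (interval 2.27 to 2.34), with A at 259 and 314. It and the GDSL lipase LTL1 (Glyma.19G250000.1, 10574 and 4701) were chosen after their values were seen.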

How the data were processed

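Total RNA was extracted from greenhouse-grown leaves with the Genall Ribospin kit and read on an Illumina NovaSeq instrument, as the labels' protocols state. Trimmomatic 0.36 and DESeq 1.36.0 are named in the submitters' processing notes; which aligner, counter, build and annotation were used is not stated in these sources. The authors deposited 1 table per age, with a normalised signal for columns A and B (reads divided by a size factor, plus 1, as the values show), a log2 fold change and p-values. No count test was run.

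From each signal 1 was subtracted. Within a tolerance of 0.01, 100% of the levels were whole multiples of 1 step per library. The 95 over 50 day ratio in B was computed per transcript, with 1 repeated row at 50 days dropped. A member counted as higher or lower with a level of 100 or more at either age and a ratio of 4 or more, and no reads were set to 3 reads. Intervals treat reads as independent molecules. Gene lists matched words in the deposited symbols and descriptions, and 8 false word matches were removed after they were seen. A transcript could be in several lists. The members and lists were chosen with earlier results of these data known.

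Named genes followed a rule: per direction the 12 genes with the largest ratio and the 6 with the largest ratio and 10 or more at the lower age; up to 2 and 1 per list with 3 or more members past 4-fold; the 4 nearest to a ratio of 1; and genes with opposite isoforms. Others that fill out a list or family were chosen after their values were seen. Python 3.11.15, pandas 2.3.3, numpy 2.4.6 and scipy 1.17.1 were used, and the steps were tested on simulated data. No sequences are shown.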

Additional observations from a re-analysis of the deposited data

Results flagged for a closer look

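Columns A and B went in opposite directions with age for many of the transcripts listed at both ages. Of the 182 transcripts higher in B at 95 days, 144 were 4-fold or more lower in A. Of the 89 lower in B, 69 were 4-fold or more higher in A, as with TOC1 and REVEILLE 1. The difference between the columns was not tested, since each holds 1 library per age, and each row was listed for a difference between A and B.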

How the results depend on the processing

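The counts of 182 higher and 89 lower stayed within 1.5 times under ratios of 2 and 8, minimum levels of 50 and 200 or none, rescaling (which shifted all log2 ratios by 0.31), whole reads without size factors, interval bounds and 1 isoform per gene. They ranged from 143 to 223 higher and from 66 to 113 lower. Among transcripts with reads at both ages they were 54 and 24. Among the 61 with an adjusted p under 0.05 in the authors' deposited table at either age, they were 16 and 6. Both settings leave fewer transcripts. The median log2 ratio, 0 over all 788, was 0.80 at a level of 100 or more and 0.31 with reads at both ages. By summed levels 1 of the 7 genes with opposite isoforms still passed 4-fold. Of the list counts 148 stayed within 1.5 times and 8 moved, clock genes from 13 to 6 higher with 1 isoform per gene; no list turned its majority, and the ethylene list became a tie at a ratio of 8. Of the values for named transcripts 115 stayed and 39 moved, and none past 4-fold changed sign. No paired analysis was possible because each column has 1 library per age. Unknown library depth, the listing by p-value and the lack of replicates limit every value here.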
